A study of Rattus norvegicus with 4 samples.

Results

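Tight clusters of open chromatin were examined in ATAC-seq peak lists from rat Schwann cells that expressed an antisense RNA from the Egr2 promoter. Peaks from the 4 lists that shared at least 1 bp were merged into 58879 regions. Of these, 45778 regions lay on chromosomes 1 to 20 and held a peak in at least 2 lists. A tight cluster, called a run, was at least 5 of these kept regions in a row with every gap to the next region at most 10 kb. In all, 2942 regions fell into 491 runs, which is 6.43% of the kept regions. The other 42836 kept regions are called unclustered, and 23365 of them were solitary, with no kept region within 10 kb. Members were thus chosen by the presence and position of peaks in these same lists. The number of lists, the spacing and the number of regions in a run are therefore given as descriptions.

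In ATAC-seq a transposase inserts sequencing adapters into accessible DNA, and peaks mark places where insertions pile up above the surrounding background. Promoters, enhancers and other regulatory elements lie in such accessible DNA, and rows of closely spaced elements are known as clusters of cis-regulatory elements or, where they are strong enhancers of cell identity, as super-enhancers. Schwann cells are the glia of peripheral nerve. EGR2 is the transcription factor that drives their myelination programme, and the Egr2 antisense RNA is made from its promoter after nerve injury.

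The study prepared libraries from primary Schwann cells of rat sciatic nerve, 2 per group and 100000 cells per library. Both groups were kept in serum with forskolin and heregulin and were infected in the presence of polybrene for 48 h. Lenti-AS cells received the virus with the Egr2 antisense RNA, and Lenti-GFP cells the control virus with GFP. Per the methods of the study, the antisense RNA was cloned into a vector of the DsRed type and the control virus carried GFP, so the antisense RNA and the change of reporter cannot be told apart. The labels call the libraries biological replicates, but they do not say which cultures or animals each came from. The p-values then measure only the spread between these libraries. Age, sex and strain of the animals are not given in the sources used here. Positions are on the rat rn6 build, and no annotation of that build was used here, so runs are named by position, genes were not assigned and marker genes of Schwann cells were not checked.

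Lists held 35646 to 54289 peaks. Relative depth, read from the background behind the peaks, was 2.38 in Lenti-GFP replicate 1 against 1 in Lenti-GFP replicate 2, the shallowest library, and the Lenti-AS libraries lay between them at 1.06 and 1.41. The shallowest library missed 25.7% of all regions found in at least 2 lists, against 2.98% to 11.9% in the other libraries. This library stood apart, and the leading group comparisons are also given without it.

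The runs were short and only partly open. The median run spanned 28052 bp, and spans ranged from 9203 bp to 83704 bp. Together the runs covered 14.4 Mb, of which 2.13 Mb lay inside regions. The median run was open over 14.7% of its span, with a range of 5.87% to 59.4%. The median gap inside runs was 5181 bp, whereas the median gap between all neighbouring kept regions was 19742.5 bp. Most runs were close to the smallest size allowed: 260 runs held 5 regions, 110 held 6 and 64 held 7, and 57 held 8 or more. Member regions were about as wide as unclustered ones, with medians of 642 bp and 660 bp after merging.

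Neither threshold of the rule fell at a natural break. The largest gap inside a run was 9997 bp and the smallest gap above the limit was 10004 bp. There were 1312 gaps of 9 to 10 kb and 1173 gaps of 10 to 11 kb, and in 181 runs the largest gap was over 9 kb. Just outside the size limit were 642 rows of 4 regions. The median fold of their regions found in all 4 lists was 3.98 and 4.79 in the Lenti-GFP libraries and 5.54 and 4.96 in the Lenti-AS libraries, in replicate order. In the runs of 5 just inside the limit these medians were 3.75 and 4.67, and 5.35 and 4.77.

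Runs were unevenly spread over the chromosomes. Chromosome 1 held 70 runs, chromosome 10 held 58 and chromosome 7 held 45. Per length, chromosome 10 was the densest, with 5.15 runs per 10 Mb, followed by chromosome 20 with 4.09. Members made up 11.1% of the kept regions on chromosome 20, 10.6% on chromosome 10 and 9.43% on chromosome 7. Chromosome 11 was at the other end, with 4 runs and 1.59% of its kept regions. Kept regions per length were also densest on chromosome 10, at 28.5 per Mb, and numbered 13.9 per Mb on chromosome 11. The orders were not the same throughout, since chromosome 12 had 25.5 regions per Mb and 3.23 runs per 10 Mb, and chromosome 20 had 22.2 and 4.09.

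Runs also lay near each other. Joining runs that were at most 1 Mb apart gave 272 neighbourhoods, and 166 of these were single runs. A further 13 neighbourhoods held at least 5 runs each and together took in 90 runs. The largest, chr10:103261607-107473661, held 11 runs with 67 regions. The next, chr7:11007063-12674912, held 10 runs with 66 regions. The third, chr20:3126184-5661814, held 10 runs with 65 regions and lay in the part of rat chromosome 20 that carries the major histocompatibility complex, the gene-dense locus of antigen presentation. Up to 6 Mb on chromosome 20 there were 11 runs with 71 regions, of the 23 runs on the chromosome. None of those 11 was gained or broken by the definitions given below, where the shares of all 491 runs were 14.3% and 0.611%. With only 11 runs this does not set the area apart.

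The 10 largest runs held 11 to 13 regions each. Among the 7 runs that tied at 11 regions, those shorter in span were taken first. A run was counted as intact in a library when at least 5 of its regions with a peak in that library followed each other with gaps of at most 10 kb. Of the 10 largest runs, 9 were intact in all 4 libraries. The exception was chr20:3126184-3186064, which was not intact in Lenti-GFP replicate 2.

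The largest run was chr1:226284375-226354133, with 13 regions over 69759 bp. Lenti-GFP replicates 1 and 2 had a peak in 13 and 12 of them, and Lenti-AS replicates 1 and 2 in 12 and 13. The missing peak was that of chr1:226295871-226296235, a 365 bp region in place 4 of the run, with a fold of 1.94 and 2.01 in the libraries that had it. Its strongest region was the last, chr1:226352942-226354133, with folds of 3.98, 5.94, 7.10 and 5.60 in the order Lenti-GFP 1, Lenti-GFP 2, Lenti-AS 1, Lenti-AS 2, the order used below for all sets of 4 values. Ranked within each list those folds were at percentiles 33.4, 53.9, 62.9 and 52.1, so the best region of the largest run was near the middle of the lists.

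The runs next in size held 12 regions. Of chr2:187849816-187898081, 11, 9, 12 and 11 regions had a peak. Its region chr2:187855903-187856297 had a peak in both Lenti-AS lists, at folds of 1.73 and 1.67, and in neither Lenti-GFP list. These folds were at percentiles 0.0223 and 0.0373, which is the bottom of both lists. Of chr1:80207917-80257337, 12, 11, 12 and 12 regions had a peak, and the missing one was chr1:80219703-80220462, at a fold of 1.59 to 1.66 elsewhere. Of chr1:55687474-55737097, 11, 10, 10 and 11 regions had a peak, and its strongest region, chr1:55722671-55722974, had folds of 8.01, 7.04, 8.91 and 8.41. Of chr12:17329583-17396118, 10, 9, 11 and 12 regions had a peak, and chr12:17360003-17360289 was another that was present in both Lenti-AS lists only.

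The rest of the 10 largest runs held 11 regions. The run with the most peaks missing in the control was chr10:86836818-86878809, where 9 and 7 regions had a peak in the Lenti-GFP lists and all 11 had one in both Lenti-AS lists. In chr6:109281308-109325858, 10, 8, 11 and 11 regions had a peak. Its strongest region, chr6:109281308-109282366, had folds of 6.18, 8.38, 8.35 and 7.86 and −log10 p values of 106, 98.9, 133 and 136. In chr5:154463071-154517540 the shallowest library missed a single region and the others had all 11. In chr20:3126184-3186064, 11, 7, 11 and 10 regions had a peak, and its strongest region, chr20:3146007-3147101, had folds of 7.33, 6.11, 11.3 and 9.05. The opposite pattern was seen in chr5:164913288-164978306, where 11 and 10 regions had a peak in the Lenti-GFP lists and 9 and 8 in the Lenti-AS lists. Over the 10 runs, the 29 regions that were missing in at least 1 list had a median width of 456 bp, and the 87 present in all 4 had 771 bp. Missing regions were thus mostly the narrower ones, although the widest of them, chr20:3160596-3161694, was 1099 bp wide and had folds of 5.02 and 5.25 in both first replicates.

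**Figure D1:**
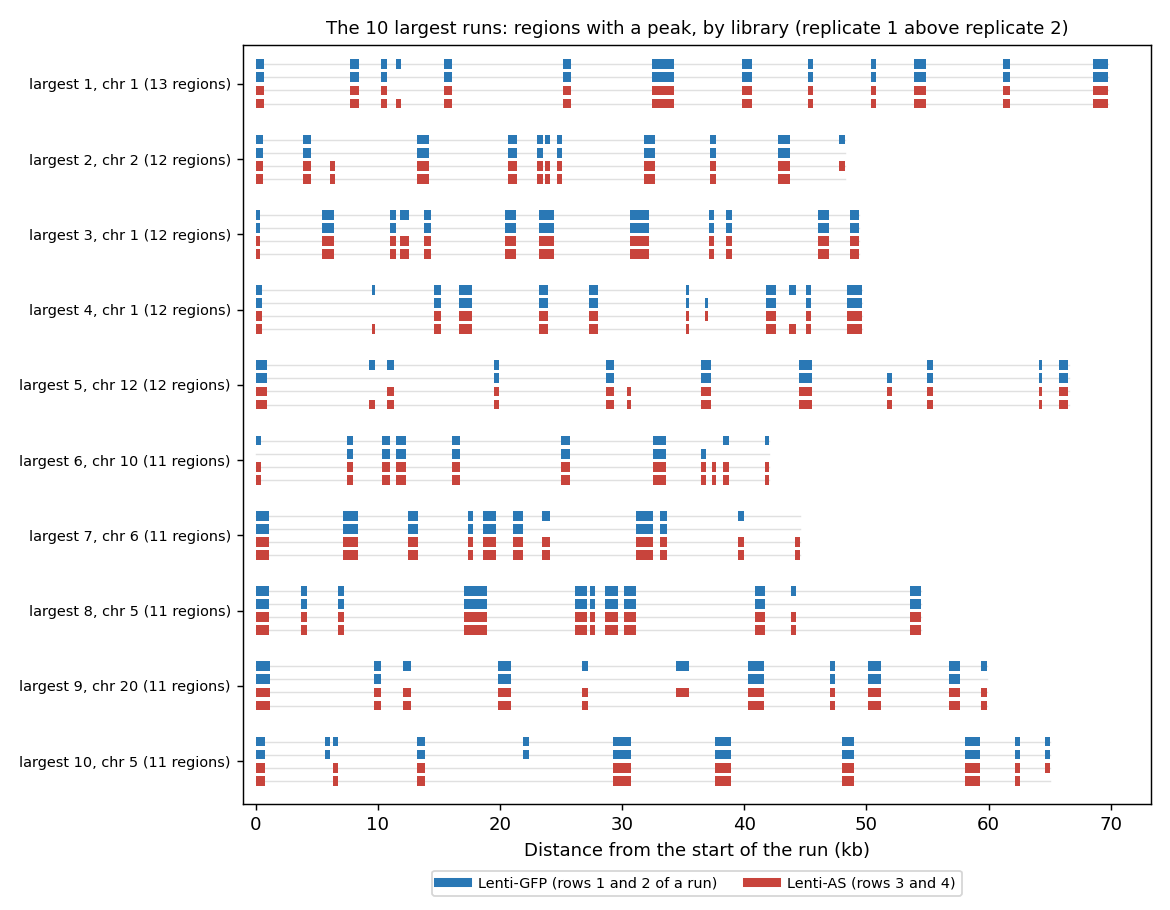
Map of the 10 largest runs. The x axis is the distance from the start of each run in kb, each run has 4 rows (Lenti-GFP replicates 1 and 2 in blue, Lenti-AS replicates 1 and 2 in red), and a block to scale marks a merged region that holds a peak in that library; 9 of the 10 runs were intact in all 4 libraries, and the regions missing in a row are mostly narrow ones.

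Members were found in all 4 lists about as often as unclustered regions. Of the members, 2052 (69.7%) had a peak in all 4 lists, against 29139 (68.0%) of the unclustered regions. Only 59 runs had every region in all 4 lists. In 286 of the 490 runs with a peak in every list (58.4%), all 4 libraries had the same strongest region by fold.

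Clustered regions were weaker than unclustered ones when measured by fold, the deposited ratio of coverage at the summit to the background around it. Over regions present in all 4 lists, the median fold of members was 3.67 against 5.12 for unclustered regions in Lenti-GFP replicate 1. The other Lenti-GFP library had 4.52 against 5.97. The Lenti-AS libraries had 5.12 against 7.0 and 4.58 against 6.32. On the log2 scale members were lower in every library, at -0.48, -0.40, -0.45 and -0.46. The gap was -0.46 ± 0.01 (SD, n = 2) in Lenti-AS and -0.44 ± 0.06 (SD, n = 2) in Lenti-GFP. These differed by -0.02, less than the spread between the Lenti-GFP libraries (exact two-sided permutation test, p = 1, where 2 libraries per group cannot give a p below 0.33). With n = 2 in each group, this does not show that the gaps were alike.

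The summit pileup itself went the other way. A whole-number pileup and the local background were recovered from the fold and −log10 p of each peak, and both were divided by the genome-wide background of the library, the level behind its least covered peaks. In these units the median pileup of members was 19.8 against 15.6 for unclustered regions in Lenti-GFP replicate 1 and 27.7 against 20.7 in Lenti-GFP replicate 2. The first Lenti-AS library had 37.7 against 25.3, and the second 29.95 against 21.4. Members were thus higher in every library by this measure and lower in every library by fold.

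The local background was higher still inside clusters. It was 4.99, 5.49, 6.50 and 5.89 times the genome-wide background for members, and 2.94, 3.05, 3.17 and 3.05 times for unclustered regions. Since fold divides by this background, a region in a run needs a higher pileup than a solitary region to reach the same fold. The −log10 p differed less between members and unclustered regions, with medians of 24.9 against 30.3, 19.0 against 20.1, 29.9 against 28.8 and 28.0 against 29.0. Local background moved with the fold and the pileup, and its part in either was not tested.

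These values changed step by step with the number of regions in a row. Here a chain is any row of kept regions with gaps of at most 10 kb, from a solitary region upward. From solitary regions to chains of 7 or more, the median fold fell from 5.67 to 3.63 in Lenti-GFP replicate 1 and from 7.72 to 5.00 in Lenti-AS replicate 1. Over the same steps the pileup rose from 14.6 to 20.4 times and from 22.4 to 39.1 times the genome-wide background. The local background rose from 2.46 to 5.31 times in Lenti-GFP replicate 1 and from 2.52 to 7.0 times in Lenti-AS replicate 1. Solitary regions had nearly the same local background in all 4 libraries, at 2.46 to 2.52 times, and the libraries drew apart only as chains grew.

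**Figure D2:**
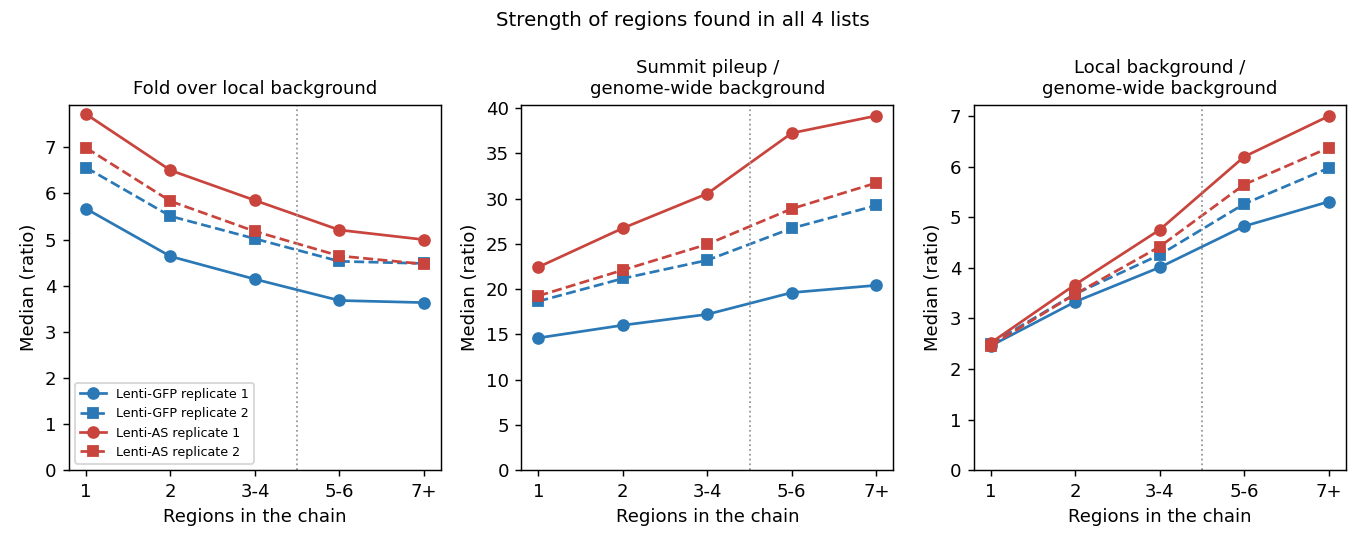
Median strength of regions present in all 4 lists, by the number of regions in their chain (x axis, 1 to 7 or more). The 3 panels give the fold over local background, the summit pileup over the genome-wide background and the local background over the genome-wide background (ratios, y axes from 0), with 1 line per library and the dotted line marking where runs of 5 or more begin; fold falls and both other measures rise in all 4 libraries, and in each library the local background rises by a larger factor than the pileup.

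A similar order was found within runs. The 982 regions at the ends of runs had median folds of 3.67, 4.77, 5.01 and 4.46, and the 1960 regions between them had 3.27, 4.29, 4.44 and 3.95. The inner regions had the higher background, 4.91 against 4.05 times the genome-wide level in Lenti-GFP replicate 1 and 6.55 against 5.23 in Lenti-AS replicate 1. The inner regions also had the higher pileup in every library, for example 32.5 against 28.6 times in Lenti-AS replicate 1. Within a run, the strongest region had a median of 1.86 to 2.27 times the fold of the weakest.

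The rise of pileup and of local background with clustering was larger in both Lenti-AS libraries than in both Lenti-GFP libraries. The log2 gap in pileup between members and unclustered regions was 0.34, 0.42, 0.58 and 0.49, which gave 0.53 ± 0.06 (SD, n = 2) in Lenti-AS and 0.38 ± 0.06 (SD, n = 2) in Lenti-GFP. For local background the gaps were 0.76, 0.85, 1.04 and 0.95, or 0.99 ± 0.06 (SD, n = 2) against 0.81 ± 0.06 (SD, n = 2). The groups did not overlap in either measure, and the differences were 0.15 and 0.19. Pileup was planned as an alternative to fold, and its exact two-sided permutation test gave p = 0.33, the smallest that 2 libraries per group allow. The background gap was looked at after the data were seen, so no test is given for it. Without Lenti-GFP replicate 2 the differences were 0.23 in both measures, and without Lenti-AS replicate 1 that in pileup was 0.09. Median peak width, summed over the peaks of a region in a list, followed the same order. Members were narrower than unclustered regions by 50 bp and 11.5 bp in the Lenti-GFP libraries. In the Lenti-AS libraries they were wider by 27 bp and 10 bp. The median widths of members were 718, 512.5, 613 and 630 bp. That difference between groups was 49.25 bp, and 72.5 bp without Lenti-GFP replicate 2, and it too is given with no test.

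Detection of members split the same way. A peak was present in 93.2% and 73.7% of members in the Lenti-GFP libraries and in 94.0% and 95.3% in the Lenti-AS libraries. For unclustered regions the shares were 97.3% and 74.2%, and 87.7% and 93.6%. Members minus unclustered regions therefore came to -4.03 and -0.54 percentage points in the Lenti-GFP libraries, and to 6.25 and 1.71 points in the Lenti-AS libraries. Presence of peaks in these lists chose the members, so these shares and their differences are descriptions with no test.

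The difference in this gap between groups was 6.27 percentage points, with means of 3.98 ± 3.21 (SD, n = 2) in Lenti-AS and -2.29 ± 2.47 (SD, n = 2) in Lenti-GFP. It was 9.61 points when each list was cut to its strongest 35646 peaks by −log10 p, and 9.0 points when peaks were kept by the −log10 p they would have had at the relative depth estimated for the shallowest library. Without Lenti-GFP replicate 2 it was 7.44 points. Without Lenti-AS replicate 1 it was 0.525 points and the groups overlapped, since Lenti-GFP replicate 2 then had a gap of 1.41 points. That setting also changes the members, because regions seen in both Lenti-AS lists alone are then in 1 list and drop out.

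With chain size, detection moved in opposite directions in the first replicates of the 2 groups. From solitary regions to chains of 7 or more it fell from 98.1% to 92.9% in that of Lenti-GFP and rose from 85.9% to 95.0% in that of Lenti-AS. In Lenti-AS replicate 2 it went from 93.2% to 95.6%, a smaller step. In Lenti-GFP replicate 2 it stayed between 72.5% and 76.1% with no steady order.

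**Figure D3:**
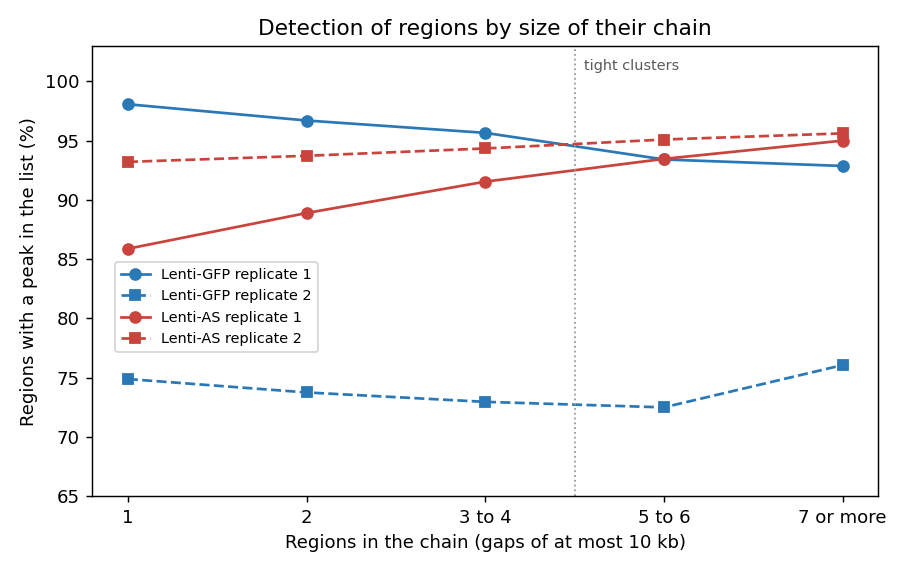
Share of kept regions with a peak in each library (y axis, percent, drawn from 65) by the number of regions in their chain (x axis). Each line is 1 library and the dotted line marks where runs of 5 or more begin; the share falls with chain size in Lenti-GFP replicate 1, rises in both Lenti-AS libraries and is lowest throughout in Lenti-GFP replicate 2, the shallowest library.

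The Lenti-AS libraries held more intact runs on average, but the Lenti-GFP libraries differed widely from each other. Of the 491 runs, 388 and 158 were intact in the Lenti-GFP libraries and 394 and 418 in the Lenti-AS libraries. The means were 406 ± 17.0 (SD, n = 2) and 273 ± 163 (SD, n = 2). The difference of 133 runs was smaller than the SD of the Lenti-GFP libraries, though the groups did not overlap. Runs were built from peaks of the same lists, so the counts are given with no test. Without Lenti-GFP replicate 2 the difference was 28 runs. Without Lenti-AS replicate 1 the groups overlapped, with 350 and 155 intact runs in Lenti-GFP and 343 in Lenti-AS replicate 2. They also overlapped without Lenti-AS replicate 2, at 323 and 157 in Lenti-GFP and 319 in Lenti-AS replicate 1. Leaving out a Lenti-AS library also drops every region seen only in Lenti-AS. With lists of equal size, 114 and 139 of 228 runs were intact in Lenti-GFP and 197 and 189 in Lenti-AS. With pileup and background scaled to the lowest depth estimate, the numbers were 216 and 155, and 367 and 367, of 408 runs. That estimate comes from the peak backgrounds alone, so sequencing depth itself was not equalised. In both settings each Lenti-AS library held more intact runs than each Lenti-GFP library, and the Lenti-GFP libraries came closer together.

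**Figure D4:**
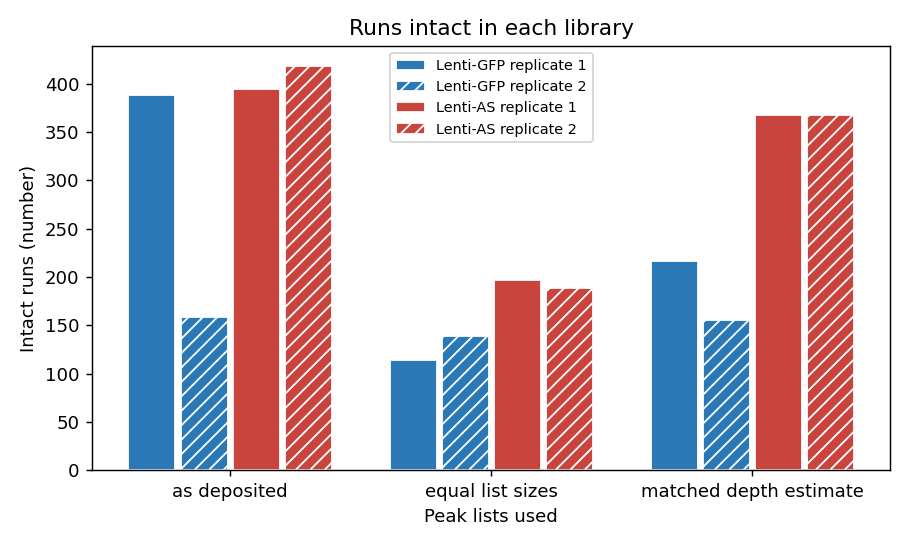
Number of intact runs in each library (y axis) with the lists as deposited, with lists of equal size and at a matched depth estimate (x axis). Bars are single libraries, plain for replicate 1 and hatched for replicate 2; runs were found anew in each setting, of 491, 228 and 408 runs, and both Lenti-AS bars are above both Lenti-GFP bars in each.

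Which libraries filled a run depended on its size. In all, 136 runs were intact in all 4 libraries and 135 in all but Lenti-GFP replicate 2. A further 56 were intact in the first Lenti-GFP library and the second Lenti-AS library only, and 35 in both first replicates only. A further 7 runs were intact in no library. Of the runs of 5 regions, where a single missing peak breaks the run, 16.5% were intact in all 4 libraries. Of the runs of 8 or more regions, 59.6% were. Among those larger runs, 98.2% and 100% were intact in the Lenti-AS libraries and 91.2% and 61.4% in the Lenti-GFP libraries.

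Runs gained in Lenti-AS, intact in both Lenti-AS libraries and in neither Lenti-GFP library, numbered 70 (14.3% of the 491 runs). Runs broken in Lenti-AS, intact in both Lenti-GFP libraries and in neither Lenti-AS library, numbered 3 (0.611%). These shares are those of all runs, since a run can only be gained or broken where there is one, and no p was computed for them. Both counts changed with the libraries used. Without Lenti-GFP replicate 2, 79 runs were gained and 9 broken. Without Lenti-GFP replicate 1, 213 were gained and 1 was broken. Without Lenti-AS replicate 1 the counts were 7 and 8, and without Lenti-AS replicate 2 they were 9 and 9, since many Lenti-AS-only regions then no longer counted as kept. At the matched depth estimate 125 were gained and 1 broken, and with equal list sizes 43 and 2. The excess of gained over broken runs was thus seen only with both Lenti-AS libraries in use. With 1 of them left out, the rule of at least 2 lists drops every region seen only in Lenti-AS. Those counts therefore cannot decide what the excess rested on.

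Gained runs were mostly short, and the median peak missing from them in Lenti-GFP was low in the Lenti-AS lists by fold. They held 386 regions, and 48 of the 70 runs had the smallest size of 5 regions. A peak was present in 77.98% and 62.2% of these regions in the Lenti-GFP lists and in 98.7% and 98.4% in the Lenti-AS lists. Of the 386 regions, 79 had a peak in both Lenti-AS lists and in neither Lenti-GFP list. The 85 regions without a peak in Lenti-GFP replicate 1 had median fold percentiles of 4.74 and 2.92 in Lenti-AS replicates 1 and 2. Of the 146 regions without a peak in Lenti-GFP replicate 2, 142 had one in each Lenti-AS list, at median percentiles of 4.92 and 3.87. Their upper quartiles were 11.8 and 11.4 and the highest were 59.9 and 52.5, so some were not near the bottom of the lists.

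The largest gained run was chr9:93505933-93552957, with 8, 6, 9 and 8 of its 9 regions filled. Its region chr9:93528371-93528774 was missing in Lenti-GFP replicate 1 and had folds of 3.99, 4.81 and 3.04 in the others. Without it, the first Lenti-GFP library had no stretch of 5 regions with gaps of at most 10 kb. The run chr16:7484919-7538986 also held 9 regions, filled 7, 7, 9 and 9. Both of its missing regions were found in Lenti-AS only. Region chr16:7493371-7493704 had folds of 3.52 and 3.48, and chr16:7514380-7514605, only 226 bp wide, had 3.21 and 2.57. Its strongest region, chr16:7537428-7538986, was present in all lists at 5.13, 7.28, 8.32 and 7.21.

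Of the other gained runs named by size, chr10:55868204-55906293 had 7, 5, 7 and 6 of its 8 regions filled. It held both a Lenti-AS-only region, chr10:55888414-55888763 at folds of 4.71 and 4.51, and a Lenti-GFP-only region, chr10:55872918-55873263 at 2.95 and 4.02. In chr5:156233132-156280674, 7, 4, 8 and 7 of 8 regions were filled, and chr5:156263739-156264115 was the Lenti-AS-only one, at 5.28 and 3.71. In chr2:144733210-144756847, 6, 5, 7 and 7 of 7 regions were filled, and chr2:144748203-144748545 was found only in Lenti-AS, at 3.20 and 2.30. Each of these 5 runs lacked regions of at most 404 bp in the first Lenti-GFP library. In the chromosome 5 run the Lenti-AS-only region had the highest fold of the run in Lenti-AS replicate 1, so missing regions were not always the weakest.

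Each of the 3 broken runs had 5 regions, all filled in both Lenti-GFP lists and 4 filled in each Lenti-AS list. In chr1:56024067-56038100 both Lenti-AS libraries lacked chr1:56028075-56028550, which had folds of 2.25 and 2.84 in Lenti-GFP. In chr9:46656541-46678601 both lacked chr9:46667090-46667387, at 2.39 and 3.64 in Lenti-GFP. In chr10:88865788-88888680 the 2 Lenti-AS libraries lacked different regions. Replicate 1 lacked chr10:88878339-88878745, at a fold of 2.72 in Lenti-AS replicate 2, and replicate 2 lacked chr10:88888145-88888680, at 4.15 in Lenti-AS replicate 1. No region of this last run was missing in both Lenti-AS lists.

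**Figure D5:**
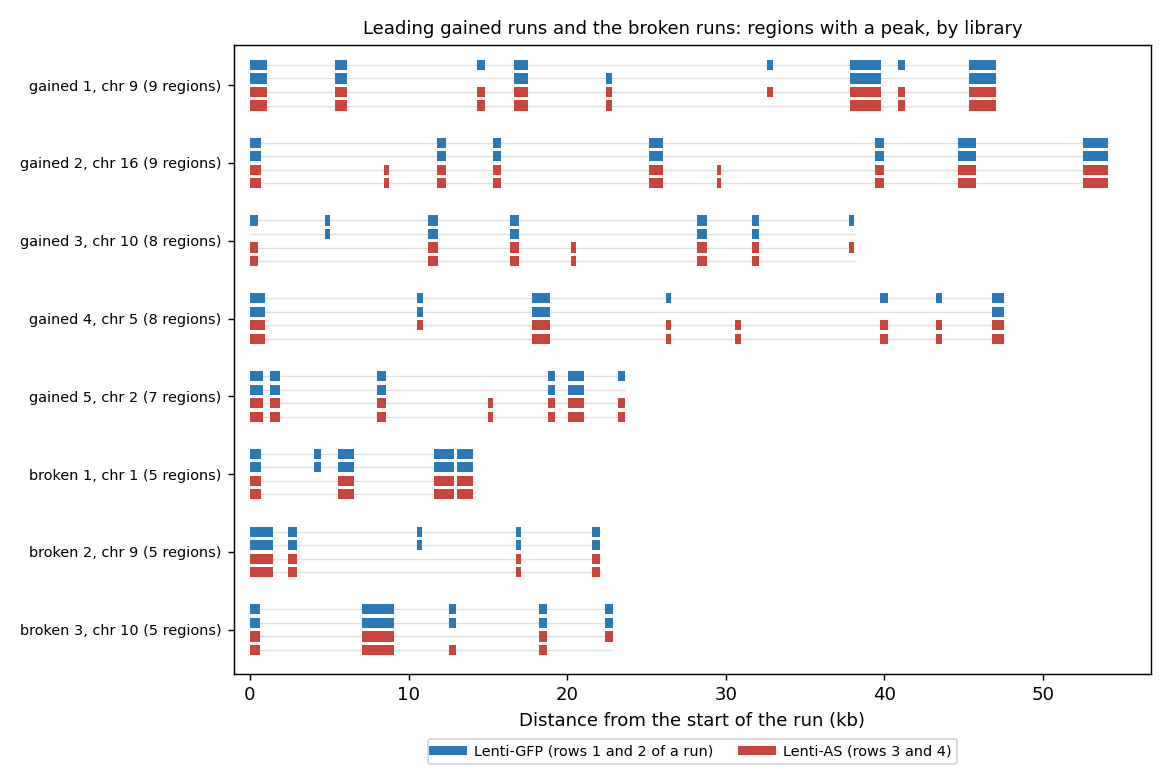
Map of the 5 largest gained runs and the 3 broken runs. The x axis is the distance from the start of each run in kb, each run has 4 rows (Lenti-GFP in blue above Lenti-AS in red, replicate 1 above replicate 2), and a block to scale marks a merged region with a peak; regions of over 1 kb are present in all 4 rows, and narrower ones separate the groups.

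Single members were compared next. A peak in both Lenti-AS lists and neither Lenti-GFP list was found at 160 members (5.44%), and at 2.29% of all kept regions. The reverse was found at 28 members (0.952%), and at 1.52% of all kept regions. Leaving out Lenti-GFP replicate 2 gave 188 members (6.39%, against 2.66% of all kept regions) and 28 (0.952%, against 1.52%). Leaving out Lenti-GFP replicate 1 raised the Lenti-AS-only members to 574 (19.5%, against 14.8%), and the reverse count was again 28 (0.952%, against 1.52%). Every kept region is in at least 2 lists, so a region seen in 1 group alone is in both lists of that group. Leaving out a library of that group therefore cannot change its count. The 28 above and the 160 (5.44%, against 2.29%) without either Lenti-AS library were fixed in this way. Lenti-GFP-only members rose to 52 (1.77%, against 2.60%) without Lenti-AS replicate 1 and 53 (1.80%, against 4.29%) without Lenti-AS replicate 2. Members thus had a larger share of Lenti-AS-only regions and a smaller share of Lenti-GFP-only regions than the whole set. The rule itself used presence in the lists, so these shares are descriptions.

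The strength of members was compared by rank. Each list was ranked on its own, regions without a peak shared its lowest rank, and the ranks were converted to normal scores. By fold, 477 members (16.2%) ranked higher in both Lenti-AS libraries than in both Lenti-GFP libraries, against 19.0% of all regions. Another 219 members (7.44%) ranked lower in both, against 14.2% of all regions. A region with peaks in 1 group alone enters these counts through that group. Among members present in all 4 lists, 480 (23.4%) ranked higher by fold, against 20.7% of such regions, and 329 (16.0%) ranked lower, against 18.0%. Members present in all 4 lists were close to the background, while over all members the share ranked lower was below it. These shares by fold turned on which Lenti-GFP library was used. Without Lenti-GFP replicate 2, 2055 members (69.9%) ranked higher, against 44.9% of all regions, and 325 (11.0469%) ranked lower, against 29.9%. Without Lenti-GFP replicate 1 the balance was the opposite, with 593 (20.2%) higher, against 31.2%, and 1646 (55.9%) lower, against 37.4%. Members present in all 4 lists moved the same way. Of these, 1063 (51.8%) ranked higher without Lenti-GFP replicate 2, against 41.6% of such regions, and 526 (25.6%) lower, against 33.6%. Without Lenti-GFP replicate 1, 703 (34.3%) ranked higher, against 35.4%, and 897 (43.7%) lower, against 37.4%. By fold, then, no direction held for members against both Lenti-GFP libraries. An absent peak had a score of -1.13 in Lenti-GFP replicate 2, above the -2.17 to -1.56 of the other libraries, because more peaks were absent there.

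By pileup the picture differed. Here 1117 members (38.0%) ranked higher in both Lenti-AS libraries, against 21.0% of all regions, and 314 (10.7%) ranked lower, against 23.0%. Among the 2052 members present in all 4 lists, where no peak is absent, 741 (36.1%) ranked higher, against 23.2% of such regions, and 222 (10.8%) ranked lower, against 22.5%. Leaving out either Lenti-GFP library kept the balance by pileup, with 52.7% and 52.8% of members higher, against 32.6% and 36.7% of all regions, and 22.8% and 22.4% lower, against 40.1% and 35.7%. The median difference in score, Lenti-AS minus Lenti-GFP, was 0.10 for members by pileup and 0.04 by fold. For solitary regions it was -0.07 by pileup and -0.03 by fold. The share of regions with a higher mean pileup score in Lenti-AS went from 39.5% of solitary regions to 48.5% in chains of 2, 55.6% in chains of 3 to 4 and 67.2% in runs of 5 to 6, and was 65.8% in runs of 7 or more. Pileup ranks and the local background moved together in clusters, and the part of one in the other was not tested.

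Whole runs, scored by the mean over their regions, gave the same contrast between pileup and fold. By pileup, 261 runs (53.2%) were higher in both Lenti-AS libraries than in both Lenti-GFP libraries, against 19.5% of all chains, and 28 (5.70%) were lower, against 25.4%. In chains of 3 to 4, the nearest in size, 32.1% were higher and 15.4% lower. A mean over more regions is less noisy, so shares at different sizes are not strictly comparable. By fold, 54 runs (10.998%) were higher, against 18.0% of all chains, and 22 (4.48%) were lower, against 15.6%. Leaving out Lenti-GFP replicate 2 gave 305 runs (62.1%) higher by pileup, against 34.8% of all chains, and 72 (14.7%) lower, against 37.7%. By fold that setting had 410 runs (83.5%) higher, against 40.7%, and 27 (5.50%) lower, against 34.1%. Without Lenti-GFP replicate 1 the fold counts turned to 63 runs (12.8%) higher, against 31.9%, and 321 (65.4%) lower, against 36.1%.

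With all 4 libraries, no single member passed a test for a change in rank. In limma on the ranked folds of 46625 regions, 0 members were higher and 0 lower in Lenti-AS at a Benjamini-Hochberg adjusted p under 0.05, and 0% of all regions were called in either direction. At an unadjusted p under 0.05 limma gave 45 members higher (1.53%, against 2.49% of all regions) and 22 lower (0.748%, against 3.08%). These unadjusted counts moved with the library left out. Without Lenti-GFP replicate 1 limma had 66 members higher (2.88%, against 7.98%) and 258 lower (11.2%, against 4.09%), and without Lenti-GFP replicate 2 it had 157 higher (5.61%, against 3.81%) and 12 lower (0.429%, against 2.26%). With pileup ranked in place of fold limma called 0 members in either direction after adjustment. Unadjusted, that fit had 276 members higher (9.38%, against 4.16% of all regions) and 40 lower (1.36%, against 5.16%). Over the 31790 regions present in all 4 lists, where no region enters through 1 group alone, limma on ranked fold called 0 members after Benjamini-Hochberg adjustment. Unadjusted, it had 84 members higher (4.09%, against 3.87% of such regions) and 47 lower (2.29%, against 4.80%). With the replicate number as a block on those regions, limma called 0 members, 0.00629% of the regions higher and 0.164% lower after adjustment. Leaving out 1 Lenti-AS library made limma call regions lower at an adjusted p under 0.05. Without Lenti-AS replicate 1 these were 2 members, against 0.802% of all regions, and without Lenti-AS replicate 2 they were 2 other members, against 2.14% of all regions. None of the 4 had a peak in the Lenti-AS list that was kept, so each entered through Lenti-GFP.

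The runs that shifted most towards Lenti-AS did so by rank and by new peaks. The leading run by mean fold score was chr4:65317302-65344344, with a difference of 0.68. Its region chr4:65343994-65344344 had folds of 5.62, 7.88, 12.8 and 11.4, at percentiles 72.9, 80.4, 96.7 and 97.5, so both Lenti-AS libraries ranked it above both Lenti-GFP libraries. Its region chr4:65317302-65317815 was at percentiles 79.7, 41.9, 93.0 and 93.3. Next was chr13:109655712-109692841, a gained run with a difference of 0.59, in which chr13:109655712-109656099 and chr13:109661736-109662062 were Lenti-AS-only. The third was chr5:169381700-169404588, also gained, at 0.54, where all 5 regions had a peak in both Lenti-AS lists, and 4 and 3 in the Lenti-GFP lists. The runs chr15:44549990-44584513 and chr3:124474497-124505385 followed at 0.48 and 0.45. These runs were picked for the size of the difference, so no test goes with them.

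Of the 5 runs that shifted most away from Lenti-AS, 2 had fewer peaks in both Lenti-AS lists than in Lenti-GFP replicate 1 and fewer in Lenti-AS than in Lenti-GFP in all. In chr2:240460608-240487077, at -0.50, 5 and 4 of 5 regions had a peak in Lenti-GFP and 2 and 3 in Lenti-AS. Both chr2:240469463-240470016 and chr2:240485737-240486247 were Lenti-GFP-only. In chr1:54176168-54196171, at -0.45, 6, 3, 3 and 6 regions had a peak, so the Lenti-AS libraries disagreed on which were present. Lenti-AS replicate 2 had all 6 peaks yet a mean score of -0.47, against -0.45 in Lenti-GFP replicate 2 with 3 peaks. An absent peak scored -1.13 in Lenti-GFP replicate 2, but -1.56 and -1.86 in the Lenti-AS libraries. Mean scores of runs with missing peaks also carry this floor, and its part in these shifts was not tested. In chr3:172383056-172400736, at -0.42, 5, 3, 2 and 3 of 5 regions had a peak. Lenti-GFP replicate 2 and Lenti-AS replicate 2 had 3 each, at median folds of 3.52 and 4.99 but mean scores of -0.63 and -1.01. In this run chr3:172394898-172395198 was Lenti-GFP-only, at folds of 6.09 and 5.52. The remaining runs of this kind were neighbours on chromosome 14, chr14:46643553-46669075 at -0.47 and chr14:46594144-46610671 at -0.36. All 7 regions of the first had a peak in every list, so its shift was one of rank alone. Its region chr14:46644504-46645556 had folds of 8.72, 12.03, 10.99 and 10.55, at percentiles 98.0, 98.5, 91.5 and 95.7.

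The runs that were strongest by fold were small. The highest mean fold percentile over members and lists, 82.0, was that of chr3:21675997-21707155, with 5 regions. Of these, 4 were wide, at 1019 to 1184 bp, and lay between percentiles 78.9 and 96.9 in every list. The fifth, chr3:21692975-21693292, was missing in Lenti-GFP replicate 2 and Lenti-AS replicate 1, so the run was intact in only 2 libraries. The run chr14:46643553-46669075 followed at 80.0 with 7 regions. Then came chr4:146538751-146548384 at 75.2, which was unlike the others in that its 5 regions were only 246 to 379 bp wide and lay within 9634 bp. Its region chr4:146548006-146548384 had folds of 15.6, 19.7, 19.7 and 17.6, above percentile 99.9 in every list. The runs chr12:19564124-19599998, at 72.8, and chr4:65317302-65344344, at 67.8, completed the strongest 5.

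The runs that were weakest by fold had high pileups. The lowest mean percentile, 1.16, was that of chr7:142911670-142929650, whose 6 regions had a peak in all 4 lists. Its median folds were 1.72, 2.04, 1.95 and 1.74, while its median pileups were 39.6, 67.3, 92.4 and 69.7 times the genome-wide background. The same was true of chr19:25291939-25322667 at 1.67, with 9 regions, median folds of 1.96, 2.35, 2.28 and 2.33 and median pileups of 33.0, 53.5, 81.2 and 59.9 times the background. The next, chr12:16116415-16133811 at 2.01, was one of the gained runs. It had 4, 3, 5 and 5 of its 5 regions filled, and its Lenti-AS-only region, chr12:16124662-16125046, had a fold of 1.97 and 2.05 and pileups of 59.2 and 49.2 times the background. In all 3 runs the median pileup was above the median of all members in that library, at folds near the bottom of each list.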

How the data were processed

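ATAC-seq was measured in 4 libraries, 2 per group, with groups and replicate numbers from the labels. Per the methods and the submitters' processing notes, the authors aligned reads to rn6 with Bowtie2, removed duplicates with Picard and called peaks with MACS2 for each library. Versions, options and any shift of reads for the transposase are not given in the sources used here. In each deposited list the fold is a ratio of summit pileup to local background, −log10 p and −log10 q values refer to the same peak, and the deposited score is −log10 q multiplied by 10. These values depend on depth, which the lists do not give, so no counting intervals are given.

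Pileup and background were recovered as the pair that gives the deposited fold, (pileup + 1)/(background + 1), and the Poisson −log10 p within 0.001, which was possible for 100% of the peaks. The genome-wide background is the median of the lowest 1% of backgrounds in a list, and relative depth is that value over the width of the narrowest peak. A region's fold, −log10 p, pileup and background in a list are each the highest among its peaks there. Its peak width in a list is the sum over those peaks. Coordinates are counted from 1. The matched depth estimate scaled pileup and background to the lowest relative depth and kept peaks with a −log10 p of at least 5.22.

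Group means were compared by two-sided exact permutation tests, which have 6 ways to assign the libraries. Tests planned for intact runs and for members with a peak are not reported, because peak presence chose the members. None is reported for the background and width gaps, which were compared after seeing the data. A limma fit (limma 3.58.1, R 4.3.3) of the normal scores covered 46625 regions in at least 2 lists on all chromosomes, with Benjamini-Hochberg adjustment. Scripts ran in Python 3.11.15 and were tested on simulated data. Named runs were the 10 with the most regions, the 5 strongest and 3 weakest by mean percentile of fold, up to 5 gained and 5 broken by size, and the 5 with the largest score difference in each direction without overlap between groups. Ties in the number of regions went to the shorter span. Other single regions within the named runs were picked after their values were seen. The members and lists were chosen with earlier results of these data known. Alternatives were other gaps, run sizes, list minimums, a −log10 q of at least 5, an overlap of 100 bp, equal sizes, a matched depth estimate, other strength measures, a replicate block and leaving out each library. The crossed block and the alternatives for the detection, pileup, background and width gaps for members higher by pileup, and for ranks and presence without each library were added after seeing the data. Gene content and cell type markers were not examined, because the annotation at hand is of another build than the files.

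The replicate numbers do not pair the libraries. Nothing in the labels says that a number marks a shared culture or day, and between libraries with the same number the deviations from the group mean correlated at -0.23 over the 46625 regions.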

Additional observations from a re-analysis of the deposited data

Results flagged for a closer look

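The gap in detection between members of runs and unclustered regions was positive in both Lenti-AS libraries, at 6.25 and 1.71 percentage points, and negative in both Lenti-GFP libraries, at -4.03 and -0.54 points, a difference of 6.27 points. It was flagged because every library of one group moved one way and every library of the other the opposite way. The difference was not tested, because the presence of peaks in these same lists chose the members. Without Lenti-AS replicate 1 it was 0.525 points and the groups overlapped.

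The gap in median peak width went the same way, at 27 bp and 10 bp in Lenti-AS and -50 bp and -11.5 bp in Lenti-GFP, a difference of 49.25 bp. It was noticed because the groups separated and peak ends also defined the regions, so the difference was not tested. Over every kept region with a peak the difference was 26 bp, and the gap in Lenti-GFP replicate 2 was then 5 bp, so the signs no longer separated the groups.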

How the results depend on the processing

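Members and runs followed the rule's settings. A gap of at most 5 kb gave 232 members in 44 runs, 20 kb gave 12629 in 1755, at least 10 regions gave 218 in 20, presence in all 4 lists gave 749 in 129, and equal list sizes gave 1329 in 228. Leaving out a library gave 2030 to 2797 members in 343 to 467 runs. Gained and broken runs were 8 and 0 at 5 kb, 43 and 2 with equal list sizes, and 125 and 1 at the matched depth estimate. Leaving out a library gave 7 to 213 gained and 1 to 9 broken.

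Members minus unclustered regions in log2 strength was -0.45 on average by fold, -0.087 by −log10 p, -0.59 against solitary regions, -0.79 with gaps of at most 5 kb, and reversed to 0.46 by pileup, which is not divided by the local background. The Lenti-AS minus Lenti-GFP difference in that gap, -0.02 by fold, reversed to 0.18 by −log10 p and 0.15 by pileup, and was -0.052 to 0.031 on leaving out a library. The width gap, -6.13 bp, was -87.25 bp at 5 kb and -5.67 to 9.67 bp on leaving out a library, with the reversal without Lenti-GFP replicate 1. The cause of these shifts was not tested beyond how each setting is built.

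The difference in intact runs was 28 to 214, in members with a peak 2.15 to 20.2 percentage points and in the detection gap 0.525 to 7.44 points on leaving out a library. Members higher by pileup in both Lenti-AS libraries were 38.0%, and 16.2% by fold. On leaving out a library they were 51.5% to 52.8%, where fewer libraries had to meet the rule, against 32.6% to 36.7% of all regions.

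With the replicate number as a block limma called 0 members in either direction, as without it, and the crossed pairing also called 0. On regions in all 4 lists the block gave 0 members, with 2 regions higher and 52 lower of 31790, and 0 without it. With Benjamini-Hochberg adjustment limma called 0 to 2 members lower on leaving out a library. The 2 without Lenti-AS replicate 1 were chr1:170638300-170638786 and chr3:172394898-172395198, and the 2 without Lenti-AS replicate 2 were chr1:54176168-54177029 and chr1:54183615-54184592. The same fits called 352 of 43915 regions (0.802%) and 899 of 42025 (2.14%) lower. The 4 members had no peak in the Lenti-AS list that was kept. In these fits the lone Lenti-AS library is assumed to vary like the Lenti-GFP libraries. Of the 167 values recomputed under alternatives, 117 were counted as unchanged, 45 as moved and 5 as reversed. Differences between groups that kept their direction were all counted as unchanged, whatever their size. The 117 thus include the difference in detection gap of 0.525 points without Lenti-AS replicate 1. The difference of 28 intact runs without Lenti-GFP replicate 2 is also among them. So are counts that could not change, such as the 160 Lenti-AS-only members without either Lenti-AS library. The difference in intact runs was 133 of 491 runs as deposited and 15.5 of 44 with gaps of at most 5 kb. Members ranked higher by fold were 593 to 2055 and lower 325 to 1646 on leaving out a library, and the balance turned between the Lenti-GFP libraries. With 2 libraries per group and lists without read totals, small changes could not be detected.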

Other observations

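Chromosome X was outside the rule. By the same steps it had 842 regions in at least 2 lists and 15 of them in 3 runs. Of these runs, 2 and 0 were intact in the Lenti-GFP libraries and 0 and 3 in the Lenti-AS libraries, in replicate order, so the Lenti-AS libraries did not share the pattern.

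Several separate peaks within a single region were somewhat more frequent in runs. In Lenti-GFP replicate 1, 0.656% of the members with a peak held at least 2 peaks of that list, against 0.545% of unclustered regions. The shares were 3.41% against 2.20% in the other Lenti-GFP library. They were 2.46% against 1.66% and 2.39% against 1.60% in the Lenti-AS libraries. The deepest library had the lowest shares in both sets.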
